A study of Ovis aries with 6 samples.

Results

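ISG15 and MX2 are 2 interferon-stimulated genes that were followed here, sheep by sheep, in the body side skin of fine and coarse wool breeds. Each was measured by 1 probe with 1 spot per array, A_70_P030156 for ISG15 (RefSeq mRNA NM_001009735) and A_70_P039716 for MX2 (NM_001078652), and no further probe on the array carries a RefSeq mRNA of either gene. They are 2 of the 476 genes that 734 of the 15008 probes name through a RefSeq accession. Skin was taken at full thickness, about 1 cm2 per animal, from 3 Aohan fine wool sheep (fine wool) and 3 small tail Han sheep (coarse wool), and each sheep was run on its own 1-colour (Cy3) Agilent sheep array. All animals were 12 months old and reared in pens, and each breed gave 1 ram and 2 ewes by a shared sire. Both genes were selected on the log2 signal of these same arrays, with its difference between the breeds and its spread within each breed known. No genetic change or treatment separated the groups beyond breed. The labels do not tell which sheep was the ram. The 3 arrays of a breed were scanned in 1 session, so that breed, the sire's family and scan session cannot be told apart.

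Interferons are secreted proteins that cells release when they sense viral nucleic acid, and type I interferons act on nearly every cell type through a receptor made of IFNAR1 and IFNAR2. The bound receptor signals to the nucleus and switches on interferon-stimulated genes, among them ISG15, MX1 and MX2. ISG15 is a small ubiquitin-like protein that is attached to other proteins or secreted. MX1 and MX2 are large dynamin-like GTPases that block the replication of viruses. In sheep these genes are best known from the uterus and blood cells in early pregnancy, where the embryo's interferon tau induces them.

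ISG15 signal was higher in every small tail Han sheep than in any Aohan sheep. The 3 small tail Han arrays read 2051, 2029 and 5737 units of processed intensity, replicates 1 to 3. In Aohan replicates 1, 2 and 3 it was 441, 592 and 429.8. The brightest array for ISG15 was thus small tail Han replicate 3, and the Aohan arrays lay close together. After log2 transformation and subtraction of each array's 75th percentile over the non-control probes, which puts the arrays on 1 scale, ISG15 stood at -0.17, 0.14 and 1.71 in small tail Han replicates 1 to 3. In Aohan replicates 1 to 3 it stood at -1.32, -1.79 and -1.40 on the same scale. The means were 0.56 ± 1.01 (SD, n = 3) in small tail Han sheep and -1.50 ± 0.25 (SD, n = 3) in Aohan sheep, a difference of -2.07 (standard error, SE, 0.43) on the log2 scale, or 4.19-fold. The lowest small tail Han sheep lay 1.15 above the highest Aohan sheep on the log2 scale.

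MX2 followed the same course with a narrower gap. The probe read 3673, 4393 and 8611 intensity units in small tail Han replicates 1 to 3, against 1167, 1151 and 803 in Aohan replicates 1 to 3. On the scaled log2 axis these became 0.67, 1.26 and 2.30 in small tail Han sheep. The Aohan sheep were at 0.08, -0.83 and -0.49. Again small tail Han replicate 3 was the highest of the 6 sheep, and the breeds did not overlap, with 0.59 between the nearest sheep. The mean was 1.41 ± 0.83 (SD, n = 3) in small tail Han sheep and -0.41 ± 0.46 (SD, n = 3) in Aohan sheep, which is a difference of -1.82 (SE 0.39) on the log2 scale, or 3.54-fold.

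Both genes were chosen with this breed difference known, so these differences are a description and carry no test. Of the 12481 probes well above background on at least 3 arrays, 142 fell further than ISG15 from small tail Han to Aohan sheep and 200 fell further than MX2. Neither member overlapped between the breeds, while 34.2% of all tested probes did not overlap, 16.4% being lower in Aohan sheep. Since the members were chosen on this contrast, nothing is read from that count. In whole skin, fewer expressing cells and less RNA per cell cannot be told apart.

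MX1 is the neighbour and paralog of MX2, with no other gene between the pair in the reference, and its probe was not part of the choice. MX1 intensity was 20101, 21824 and 42334 in small tail Han replicates 1 to 3, and 10936, 10869 and 9502 in Aohan replicates 1 to 3. Scaled, the small tail Han sheep were at 3.12, 3.57 and 4.60 and the Aohan sheep at 3.31, 2.41 and 3.07 on the log2 scale. Small tail Han replicate 3 was once more the highest, but small tail Han replicate 1 lay below Aohan replicate 1. This overlap depended on the scaling. The breeds did not overlap at MX1 with quantile normalization (a gap of 0.0813 on the log2 scale), in the authors' value table (0.0755) or with no surface correction (0.0685), and overlapped with median centring and with normexp. MX1 did not pass, and its level in Aohan sheep minus that in small tail Han sheep was -0.83 on the log2 scale (SE 0.37, limma adjusted p = 0.178). It passed only after the normexp background correction, where the log2 change was -1.17 (limma adjusted p = 0.000507). Whether the MX2 probe also picks up MX1 transcripts was not tested.

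**Figure D1:**
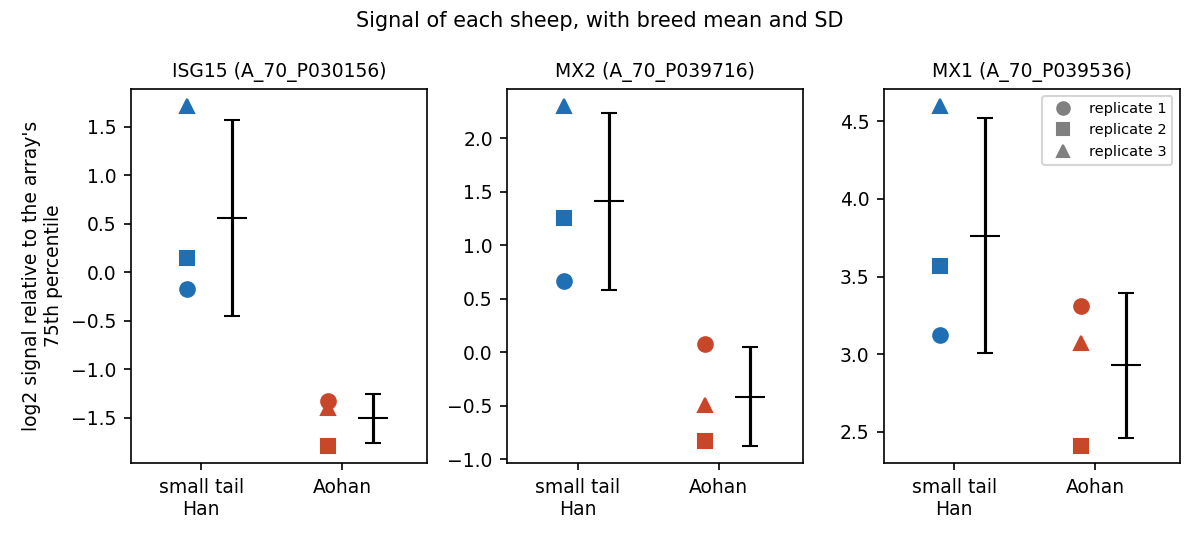
Scaled log2 signal of ISG15, MX2 and MX1 in each of the 6 sheep (points, with 1 symbol per replicate number; bars, breed mean and SD, n = 3; each panel has its own vertical scale, not begun at 0). All small tail Han sheep lie above all Aohan sheep for ISG15 and MX2 but not for MX1, whose overlap is absent under 3 of 5 other scalings or corrections, and small tail Han replicate 3 is the highest sheep in each panel.

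The sheep of a breed differed from each other at these genes, above all among the small tail Han animals. ISG15 and MX2, but not MX1, were chosen with this spread known, so their spread and its rank are a description. The range from the lowest to the highest small tail Han sheep was 1.89 for ISG15, 1.63 for MX2 and 1.48 for MX1 on the log2 scale. In Aohan sheep the range was 0.47 for ISG15, 0.91 for MX2 and 0.90 for MX1. The SD among small tail Han sheep exceeded that of 98.7% of the tested probes for ISG15, 97.2% for MX2 and 96.2% for MX1, where the median probe had an SD of 0.23. Among Aohan sheep the corresponding shares were 46.4%, 82.8% and 83.3%, with a median SD of 0.27. For 50 probes with repeated spots, a median log2 SD between spots of the same array was also taken. It spanned 0.0747 to 0.116 across small tail Han replicates and 0.134 to 0.253 across Aohan replicates. The SDs of ISG15, MX2 and MX1 among small tail Han sheep lay above all these spot values. Among Aohan sheep those of MX2 and MX1 did too. The ISG15 SD among Aohan sheep, 0.25, was no larger than the spot value of Aohan replicate 1. Spot values hold no error between arrays. As each sheep had 1 array, differences between sheep and between arrays cannot be told apart in these SDs.

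**Figure D2:**
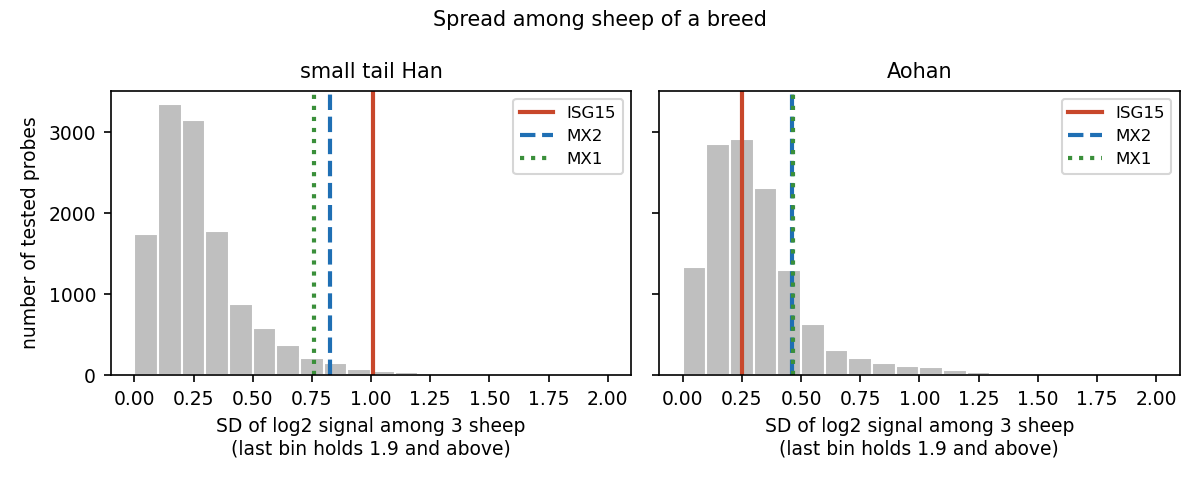
Histogram of the SD of log2 signal among the 3 sheep of each breed over the 12481 tested probes (grey bars; the last bin holds all larger values), with lines for ISG15, MX2 and MX1. In small tail Han sheep all 3 lines lie in the right tail, at 1.01, 0.83 and 0.76, whereas in Aohan sheep the ISG15 line, at 0.25, lies near the median. ISG15 and MX2 were chosen with this spread known.

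Leaving out the brightest sheep made the difference between the breeds smaller. Without small tail Han replicate 3 the log2 difference was -1.49 for ISG15 and -1.38 for MX2. The gap between the breeds cannot change with this sheep, as small tail Han replicate 1 sets it. ISG15 and MX2 were chosen on this breed difference, so these values are a description. ISG15, MX2 and MX1 ranked the sheep in the same order, replicates 1, 2, 3 from low to high in small tail Han sheep and 2, 3, 1 in Aohan sheep. This order in both breeds was also seen at 15.8% of 12410 probes with a value on all arrays, and small tail Han replicate 3 was the highest of its breed at 44.0% of them.

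Across the 6 arrays MX2 was the probe whose pattern lay closest to that of ISG15. Patterns were compared by the root mean square (RMS) difference between log2 signals centred on their own mean over the 6 arrays, and for MX2 and ISG15 this was 0.25. No other of the 12410 probes lay closer to ISG15, but a probe of K38 was almost as close, at 0.2524 against 0.2513. From MX2 that K38 probe was the closest of all, at 0.19, and ISG15 ranked 2. ISG15 and MX2 were picked for the same breed difference, so part of their likeness follows from the choice. MX1 was at an RMS difference of 0.65 from ISG15 and 0.51 from MX2, which ranked it 218 in closeness to ISG15 and 134 to MX2.

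Among 609 probes that name other genes, K38 came closest to both. K38 lies beside the keratin gene KRT32 in the reference. Its probes A_70_P048717 and A_70_P048716 had RMS differences of 0.25 and 0.28 from ISG15, and of 0.19 and 0.27 from MX2. KLK1, a tissue kallikrein that cleaves kininogen, followed for ISG15 at 0.32 and 0.45 with its 2 probes. LGALS15, a galectin, followed for MX2 at 0.37. RTP4, which helps receptors reach the cell surface and is itself an interferon-stimulated gene, came next in both lists, at 0.47 from ISG15 with 1 probe and at 0.40 and 0.44 from MX2 with both. Each of these probes was highest in small tail Han replicate 3, and each lay below its own mean in all 3 Aohan sheep. They were picked for likeness to ISG15 or MX2, which have this pattern, so the shared shape follows from the choice.

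**Figure D3:**
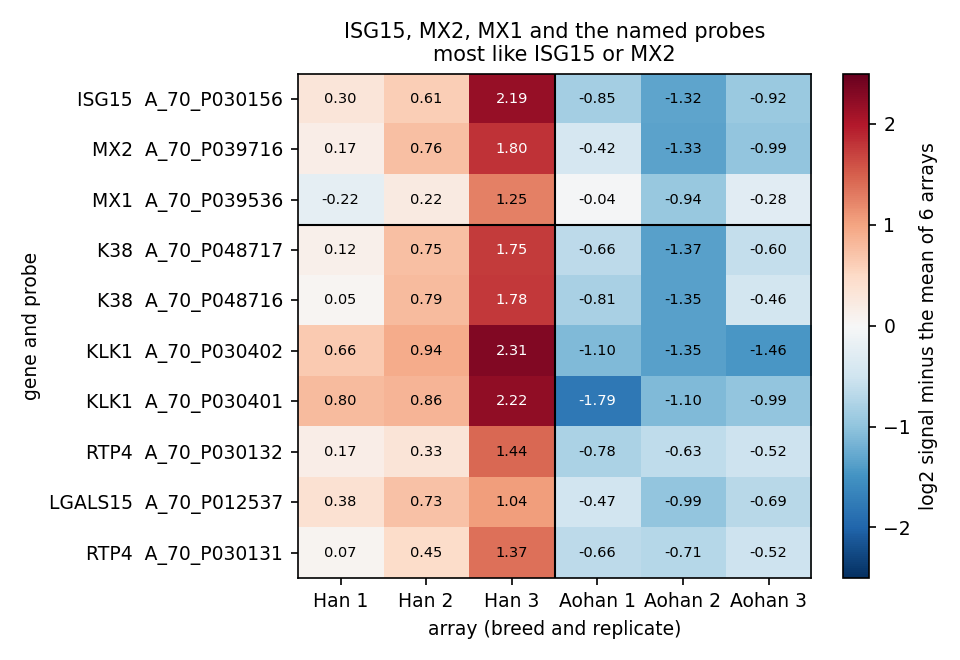
Log2 signal minus the mean over the 6 arrays (colour and printed value) for ISG15, MX2 and MX1 above the line, and below it the named probes most like ISG15 or MX2 by RMS difference. Columns are the 6 arrays, small tail Han on the left, and small tail Han replicate 3 holds the highest value in every row, 2.19 for ISG15 and 1.80 for MX2. The rows below the line were picked for this pattern.

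The other genes of the interferon pathway were read from lists by role, and few are named on this array. Besides ISG15 and MX2 the lists held 127 gene symbols, some of them synonyms of the same gene. Of these, 15 were on the array and 14 could be tested with limma, a linear model that shares the error estimate across probes. Of these 14 genes, 1 was higher and 1 lower in Aohan sheep (Benjamini-Hochberg adjusted p under 0.05 over all tested probes), and 12 did not pass. Over all probes 15.2% passed, 7.57% as higher and 7.60% as lower, so the 2 calls among 14 genes were near the background. The breeds did not overlap at 4 of the 14 genes, against 34.2% of all tested probes. Among these were CXCL10 and TLR3, which did not pass. The median change of the 14 genes was -0.10 on the log2 scale, against 0.025 over all tested probes.

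Interferons and their receptors gave no call. IFNG, the type II interferon made by T and NK cells, ranged from -3.26 to -2.71 in small tail Han sheep and from -3.43 to -3.08 in Aohan sheep at the probe A_70_P039612. Its log2 change was -0.42 (SE 0.22, limma adjusted p = 0.252), and its other probe was well above background on 2 of 6 arrays only and was not tested. IFNAR1 had a log2 change of -0.14 (SE 0.22, limma adjusted p = 0.712) and IFNAR2 one of 0.14 (SE 0.15, limma adjusted p = 0.595). All 6 sheep were well above background at both receptor genes. IFNT6, an interferon tau gene of the sheep conceptus, was added to the lists from the names on the array, and its probes did not pass, at log2 differences of 0.13 and -0.21 (limma adjusted p = 0.788 and 0.630).

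Among signal carriers and transcription factors, IRF2 was lower in Aohan sheep. IRF2, a factor that mostly represses interferon-induced promoters, was at -2.63, -2.26 and -2.46 in small tail Han replicates 1 to 3 and at -3.25, -3.16 and -3.33 in Aohan replicates 1 to 3. The breeds did not overlap, and the spread within each was small. Its log2 change was -0.79 (SE 0.18, limma adjusted p = 0.0194). The call was lost without small tail Han replicate 2 (limma adjusted p = 0.111) or 3 (0.0740) or Aohan replicate 3 (0.0838), with normexp (0.108) and with the replicate number as a block (0.0671). IRF1, an activator of interferon-induced genes, had a log2 change of 0.05 (SE 0.32, limma adjusted p = 0.937).

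The sensors of viral nucleic acid did not pass. TLR3, which binds double-stranded RNA, had log2 changes of 0.66 (SE 0.21, limma adjusted p = 0.0699) and 0.69 (SE 0.29, limma adjusted p = 0.144) at its 2 probes. Without small tail Han replicate 1 the first of these probes passed (limma adjusted p = 0.0373), and without Aohan replicate 1 the second did (0.0415). TLR7, TLR9 and the adaptor MYD88 had log2 changes of 0.28, -0.48 and -0.14 (limma adjusted p = 0.694, 0.618 and 0.877). TLR8 was well above background on 1 array at most and was not tested.

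RTP4, also an interferon-stimulated gene, was lower in Aohan sheep at both probes, as were the levels of ISG15 and MX2. At A_70_P030131 RTP4 was at 0.22, 0.59 and 1.51 in small tail Han replicates 1 to 3 and at -0.52, -0.57 and -0.38 in Aohan replicates 1 to 3, without overlap. The log2 change was -1.26 (SE 0.29, limma adjusted p = 0.0218), and -1.29 at its other probe (SE 0.30, limma adjusted p = 0.0230). At the first of these probes the call was lost without small tail Han replicate 2 (limma adjusted p = 0.0555), Aohan replicate 2 (0.0557) or Aohan replicate 3 (0.0552), and with the methods' t-test in place of limma (0.153). RTP4 was not in the written lists and was added, with BST-2B, APOBEC3F and IFNT6, from the gene names on the array, a choice made after seeing the data. BST-2B, a relative of tetherin, which holds budding virus at the cell surface, had a log2 change of 0.21 (SE 0.26, limma adjusted p = 0.657). APOBEC3F, a cytidine deaminase that edits viral DNA, rose by 0.55 in Aohan sheep (SE 0.16, limma adjusted p = 0.0470), but passed in only 2 of 16 alternative settings and its other probe did not pass (limma adjusted p = 0.0516). With these 4 genes 2 were higher and 2 lower of 18 tested, against 7.57% and 7.60% of all tested probes, and 1 call in each direction came from the genes so added.

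Of 4 tested genes that interferon gamma induces, 1 was higher in Aohan sheep. PSMB8, a catalytic subunit of the immunoproteasome, was at -1.48, -2.05 and -1.86 in small tail Han replicates 1 to 3 and at -0.75, -0.16 and -0.69 in Aohan replicates 1 to 3. The breeds did not overlap, and the log2 change was 1.26 (SE 0.22, limma adjusted p = 0.00634). The call was lost with the methods' t-test in place of limma (adjusted p = 0.0763). CXCL10, a chemokine that attracts T cells, was at -2.33, -2.21 and -0.64 in small tail Han sheep and at -0.18, -0.62 and -0.52 in Aohan sheep. Small tail Han replicate 3, the brightest for ISG15, thus stood next to the Aohan sheep at CXCL10. CXCL10 did not pass (log2 change 1.28, SE 0.40, limma adjusted p = 0.0639), but did without small tail Han replicate 3 (log2 change 1.83, limma adjusted p = 0.00152), with normexp (0.00239) and with the replicate block (0.0449). ICAM1, an adhesion molecule, had a log2 change of -0.23 (SE 0.35, limma adjusted p = 0.715).

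Ubiquitin, the relative of ISG15, was measured as a comparison. UBB, a polyubiquitin gene, did not pass, at log2 differences of 0.09 and -0.19 for its 2 probes (limma adjusted p = 0.888 and 0.650).

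**Figure D4:**
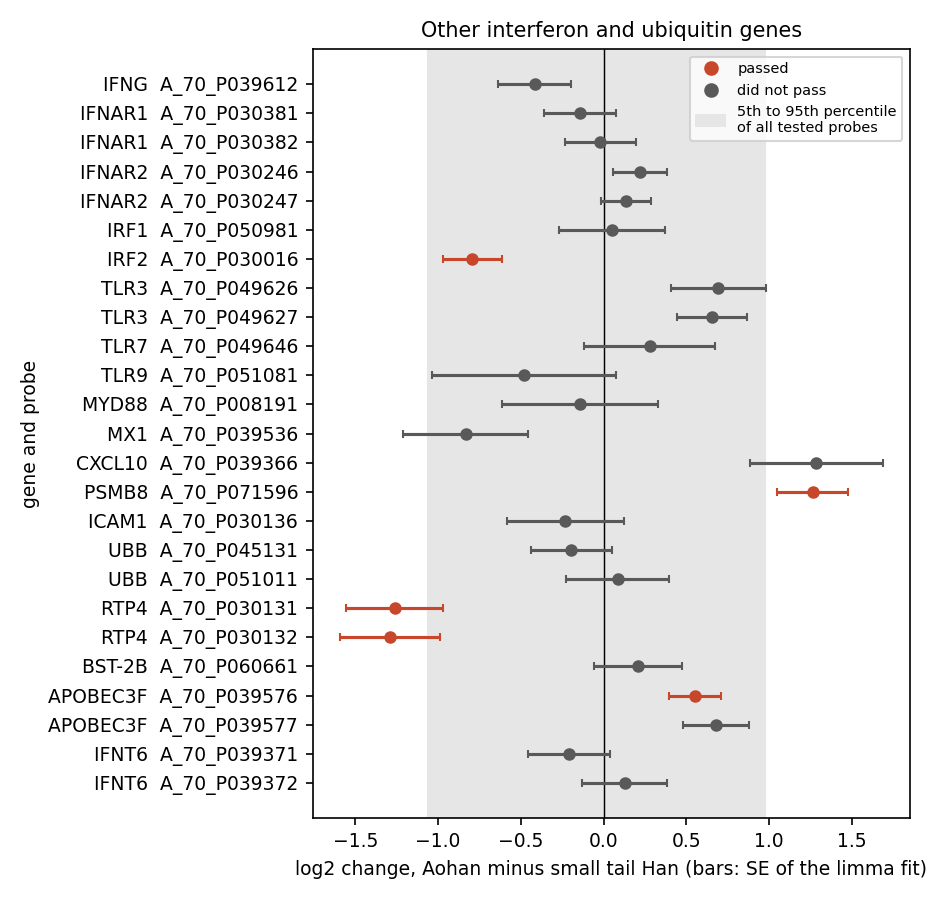
Log2 change, Aohan minus small tail Han, with its SE for the tested probes of the other interferon genes reported and of UBB (red, passed at an adjusted p under 0.05; grey, did not), over the range from the 5th to the 95th percentile of all tested probes (shaded). IRF2 and RTP4 passed as lower and PSMB8 and 1 probe of APOBEC3F as higher in Aohan sheep.

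Markers of the cell types in skin were also read. Of 3 tested markers of keratinocytes and wool follicles (KRT25, KRT27 and SFN) none passed. Their summed signal was high in both breeds, from 9.27 to 9.72 in small tail Han sheep and from 8.97 to 9.90 in Aohan sheep on the scaled log2 axis. K38, the neighbour of the keratin gene KRT32, was not on this list. Picked above for its likeness to ISG15 and MX2, it had a log2 change of -1.75 at both probes, Aohan minus small tail Han. Both K38 probes passed (limma adjusted p = 0.0174 and 0.0214), but they were picked on this pattern, so nothing is read from these calls. Of 8 tested markers of monocytes, macrophages and neutrophils 4 were higher in Aohan sheep, where 7.57% of all tested probes were higher, with a summed signal of 1.19 to 1.32 in small tail Han sheep and 2.012 to 2.343 in Aohan sheep. Of 4 tested T cell markers 2 were higher in Aohan sheep, beside the same 7.57%, with a summed signal of 1.44 to 2.29 and 2.71 to 2.995, while CD4 and CD28 had no tested probe. For plasmacytoid dendritic cells, which make much type I interferon, only TLR7 and TLR9 were tested, and their summed signal overlapped between the breeds, from -3.34 to -2.501 and from -3.09 to -2.09. Neither did any of 2 endothelial, 3 fibroblast, 1 melanocyte and 1 red cell marker pass. No gene of the B cell and muscle lists was named on the array. The part of these cell types in the ISG15 and MX2 differences was not tested.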

How the data were processed

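The authors read the array images with Agilent Feature Extraction, version 10.5.1.1 by the file headers, which were followed here. The paper's methods name an earlier version of this software and a GenePix scanner. The authors deposited a background-subtracted Cy3 intensity for each spot, not normalized between arrays. The software's multiplicative surface correction is missing on 2 arrays, small tail Han replicates 2 and 3. The deposited value table of the series gives log2 values, whose normalization is not given in the sources used here.

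After removal of controls and outlier-marked spots, processed intensities were averaged per probe on the log2 scale, less the 75th percentile of the array, which lay at an intensity of 1103 to 2309. Of 15008 probes 12481 were tested, those well above background on 3 or more arrays and with 2 or more values in each breed. The probes of ISG15, MX2 and MX1 were well above background and unsaturated on all 6 arrays. The number of arrays limits the precision. The limma p-values rest on the spread between these arrays, 1 per sheep, with the error estimate shared across probes. At MX1 this sharing gave a smaller SE, 0.37, than the methods' t-test, 0.51.

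Breeds were compared in R 4.3.3 with limma 3.58.1, using a moderated two-sided test with an intensity trend. P-values were adjusted by Benjamini-Hochberg over all 12481 probes, with 0.05 as the threshold, and SE values come from this fit. The fit was also run on simulated data with independent errors, which does not cover effects of scan session or the sire's family. For counts of genes, the tested probe with the highest mean signal stood for its gene. RefSeq accessions named 734 of 758 probes that carry one, through the ARS-UI_Ramb_v3.0 reference. Genes named are ISG15, MX2 and MX1, tested interferon genes that passed, up to 4 others per list in order of p whatever its size (which takes in most of these short lists), tested ubiquitin genes, and the 5 named probes most like each member. TLR8 and the 4 added genes were named outside this rule. Some list genes are not reported here by name but stay in the counts. The members and lists were chosen with earlier results of these data known.

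Alternatives were quantile normalization, median centring, normexp with an offset of 50 on the median spot signals, the authors' value table, other filters on dim probes, no trend, the methods' t-test, replicate number as a block, each array left out, and any probe of a gene. The lack of a surface correction and the 4 added genes were alternatives chosen after seeing the data. Figures were drawn with matplotlib 3.10.9.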

Additional observations from a re-analysis of the deposited data

How the results depend on the processing

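The ISG15 difference lay between -2.11 and -1.90 and the MX2 difference between -1.87 and -1.59 on the log2 scale under the scaling and background alternatives. The filters and the replicate block cannot move these differences. Leaving out 1 array gave -2.43 to -1.49 for ISG15 and -2.19 to -1.38 for MX2. The listed interferon genes higher in Aohan sheep numbered 2 with normexp, 0 with the methods' t-test, 2 with the 4 added genes and 1 to 2 without 1 array. Those lower numbered 2 with the added genes and 0 to 1 without 1 array. Over all probes, the methods' t-test gave 321 higher and 391 lower, and leaving out 1 array gave 348 to 1230 higher and 441 to 1018 lower.

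The labels do not say whether the replicate numbers match sheep between the breeds. Deviations from the breed mean correlated at -0.22, -0.37 and 0.28 for the same number in both breeds. These values cannot decide the matter, as the deviations within a breed sum to 0. The replicate block leaves the ISG15 and MX2 differences at -2.07 and -1.82 by design, as each replicate number occurs once per breed. With this block the listed interferon genes numbered 2 higher and 0 lower, and 565 probes were higher and 669 lower.

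Small changes that did not pass turned sign. With normexp IFNAR1 was at 0.0228 and TLR7 at -0.12, and with no surface correction IFNAR1 was at 0.0192, TLR7 at -0.0930 and BST-2B at -0.0727. Without 1 array the ranges were -0.31 to 0.0227 for IFNAR1, -0.15 to 0.20 for IRF1, -0.0878 to 0.61 for TLR7, -0.97 to 0.11 for TLR9, -0.53 to 0.42 for MYD88, -0.48 to 0.14 for ICAM1, -0.0746 to 0.37 for UBB and -0.0620 to 0.40 for IFNT6. The cause was not tested in any of these cases.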
